A study of Mus musculus with 6 samples.

Results

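The interferon response genes and immunity GTPases are a set of 43 mouse genes, taken from a list of names that was drawn up with earlier results of these arrays known. They are classed here as 31 targets of type I interferon, 11 GTPases of the interferon gamma response and Irf1, a transcription factor that serves both. The classes sort names, and which interferon a member answers, or whether it answers both, was not measured. They were followed in liver RNA of mice that overexpress Fra-1, a subunit of the transcription factor AP-1. Of the 43 genes, 41 had a probe that could be named, and these 41 were among 22830 genes tested. Probes without a gene symbol kept their name on the array and count as genes there, and so in every share of all genes tested. The other members, Mx1 and Mx2, were not analysed here.

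Liver RNA was compared on 6 arrays in 2 colours. On 5 arrays RNA of a single Fra-1hep mouse, with Fra-1 overexpression restricted to hepatocytes, was set against a pool of RNA from 5 wild-type mice. The sixth array had the dyes swapped and compared a pool of wild-type RNA with a pool of Fra-1hep RNA of unstated makeup. All mice were C57BL/6J and 26 to 28 weeks old, were kept under standard conditions without treatment, and per the series text the controls ate chow. The sources used here do not give the driver of the transgene or the number of founder lines. Values are log2 ratios of Fra-1hep over wild type, and the sign of the dye-swapped array was flipped, so a negative value means a lower signal in Fra-1hep liver. The arrays of mice 2 and 3 differed by 1.03 times the noise between replicate spots, against 1.80 to 2.28 times for the other pairs of mice, and were counted as 1 sample. The estimate for a gene is the mean of the Fra-1hep effect over mice and dye-swapped array with a constant for dye, so that the dye-swapped array weighs as much as all mice together. Its standard error (SE) and Benjamini-Hochberg adjusted p come from limma with 4 counted mouse samples and the dye-swapped array, and a gene is said to have fallen or risen where that adjusted p was under 0.05. The wild-type pool is 1 control sample, so these p-values leave out the spread among wild-type mice. With a constant for dye, the model matches the dye-swapped array exactly, and all 3 residual degrees of freedom come from the mouse samples. Each SE thus assumes that a swapped hybridisation scatters as the mouse samples do, which a single such array cannot show. The Fra-1hep pool may also hold RNA of these same mice, and so may not be an independent sample. The number of arrays limits the precision.

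Type I interferons, made when infected cells detect foreign nucleic acid, bind the IFNAR receptor, and JAK1 and TYK2 then activate a complex with STAT2 and IRF9 that binds interferon-stimulated response elements (ISRE). Interferon gamma, made mainly by NK and T cells, acts through its own receptor on gamma-activated sites (GAS), and by inducing IRF1. Type I targets include sensors of viral RNA and proteins that block translation or degrade viral RNA, while the immunity-related GTPases and guanylate-binding proteins attack the vacuoles of intracellular bacteria and parasites. In liver, Kupffer cells, sinusoidal endothelium and lymphocytes make and answer these signals beside the hepatocytes.

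The sequences through which these factors act were read in the RefSeq promoter windows of the members (GRCm38.p6, 300 bases, from 250 bases before to 50 after each gene start). The ISRE core was searched as GAAANNGAAA and GAS as TTCNNNGAA, on both strands, and matches of either kind may overlap each other. Of the 41 members, 32 had a window. The 5 stretches printed here are the 120 bases before the start, 5′ to 3′ on the strand of the gene, with matches in capitals, and were picked to show a GTPase type, an antiviral type and the one member that rose.
Igtp, chr11:58199436-58199555, plus strand: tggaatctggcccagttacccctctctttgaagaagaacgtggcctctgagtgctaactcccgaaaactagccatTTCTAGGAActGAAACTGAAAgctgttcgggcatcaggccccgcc
Irgm2, chr11:58214857-58214976, plus strand: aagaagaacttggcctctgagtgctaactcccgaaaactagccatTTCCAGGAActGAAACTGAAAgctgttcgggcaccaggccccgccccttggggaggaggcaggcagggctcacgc
Tgtp1, chr11:48992247-48992366, minus strand: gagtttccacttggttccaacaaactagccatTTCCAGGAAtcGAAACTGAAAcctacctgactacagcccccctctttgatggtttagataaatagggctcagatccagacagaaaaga
Ifit1, chr19:34640769-34640888, plus strand: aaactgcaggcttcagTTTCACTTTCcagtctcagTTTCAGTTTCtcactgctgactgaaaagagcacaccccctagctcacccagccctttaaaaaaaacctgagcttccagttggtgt
Oasl1, chr5:114923120-114923239, plus strand: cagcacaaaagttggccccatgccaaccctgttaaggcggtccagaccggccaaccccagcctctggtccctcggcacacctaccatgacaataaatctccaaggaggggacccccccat
In Igtp, Irgm2 and Tgtp1 a GAS is followed, after 2 bases on the same strand, by an ISRE core. The Ifit1 stretch holds 2 ISRE cores, read here on the opposite strand, and no GAS. The Oasl1 stretch holds neither motif, and neither did the rest of its window.

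**Figure D1:**
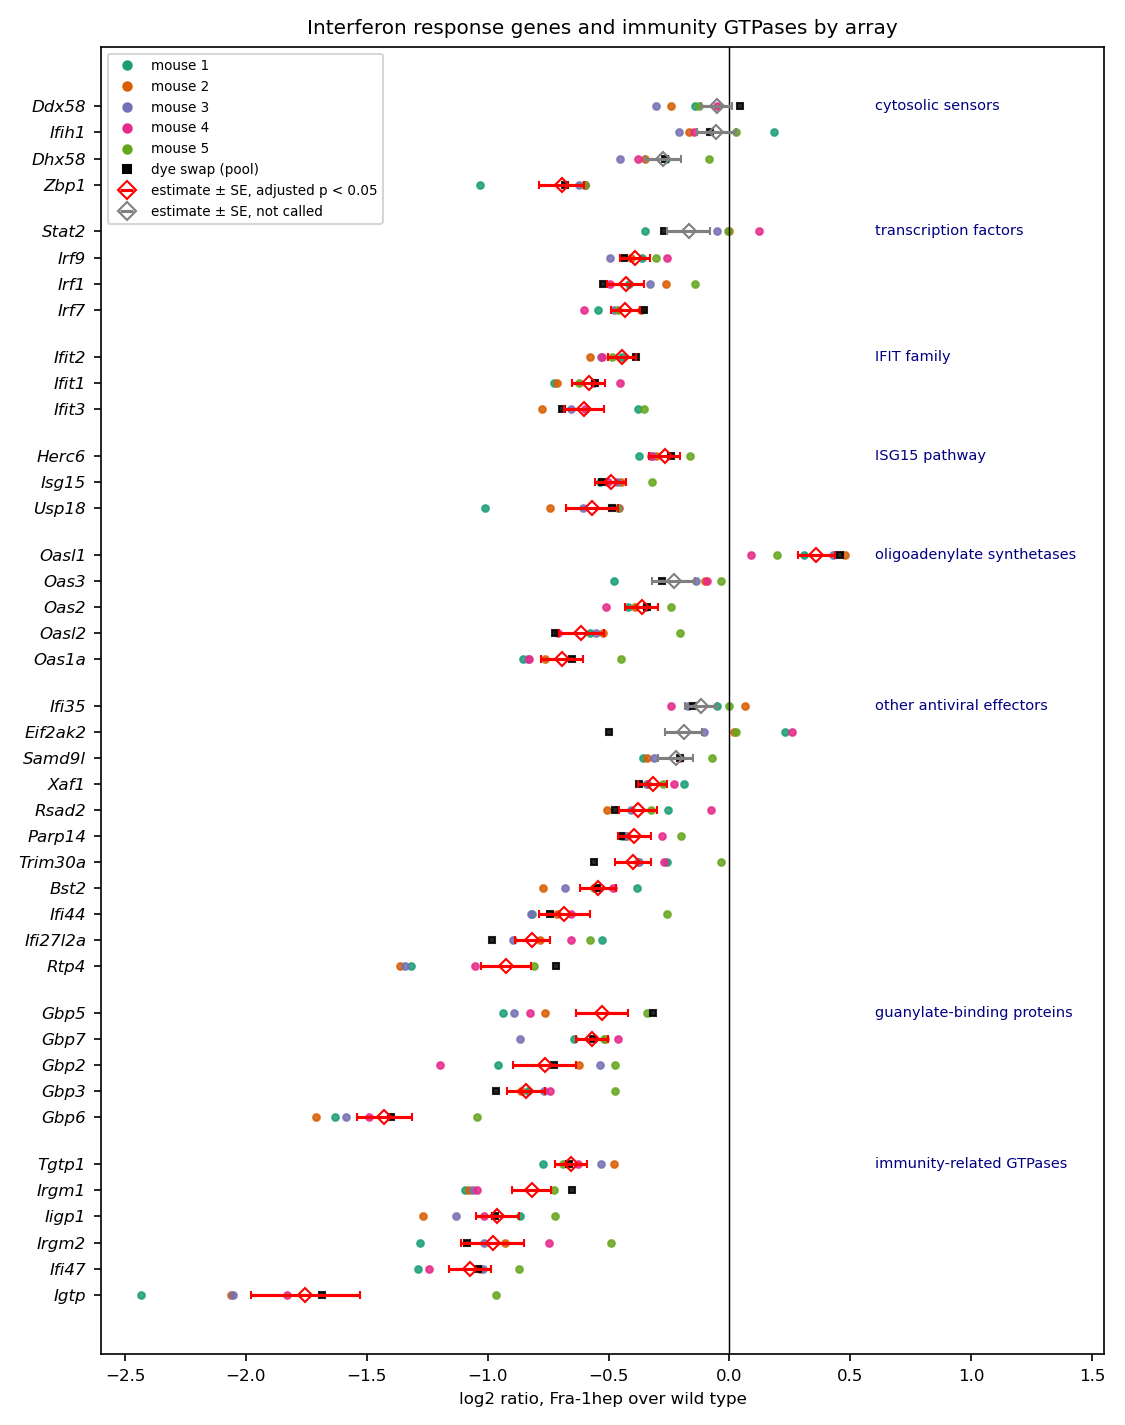
Log2 ratio of Fra-1hep over wild type (horizontal axis) for the 41 members, grouped by role. Points are the 5 mouse arrays, squares the dye-swapped array of pools, and diamonds the estimate with its SE, red where the adjusted p was under 0.05. The GTPases at the bottom lie farthest to the left and Oasl1 is the one called member right of 0.

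Most of the set, which was not chosen independently of these data, was lower in Fra-1hep liver. Of the 41 members, 32 fell, 1 rose and 8 did not pass the test, where 6.51% of all genes tested fell and 5.98% rose. The estimate was negative for 40 of the 41 members and for 10763 of the 22830 genes. All 6 arrays were below 0 for 35 members, against 12.8% of all genes, although every array holds wild-type RNA of pooled mice and so carries the pool's own composition. The median member stood at -0.53 and the median gene at 0.01. A fall of at least 1.5-fold was reached by 16 members, where 2% of all genes reached it, and Igtp, Gbp6 and Ifi47 fell at least 2-fold. Because whole liver was measured, fewer cells of a type and less RNA per cell cannot be told apart.

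The GTPases stood lower than the type I targets. All 11 GTPases fell, with a median of -0.84 (1.79-fold lower) and an SD of 0.15 for that median across the 4 counted mouse samples. Among the 29 type I targets 20 fell, 1 rose and 8 did not pass the test, with a median of -0.39 (1.31-fold lower) and an SD of 0.07. Every GTPase was below the type I median, and 1 of the 29 type I targets, Rtp4, was below the GTPase median. Targets of interferon gamma other than GTPases had a median of -0.32, with single genes from -1.72 to 0.20. Whether the gap extends to the gamma response as a whole was not tested. The order of GTPases and type I targets held on each array. The GTPase median minus the type I median was -0.57 in mouse 1, -0.52 in mouse 2, -0.56 in mouse 3, -0.63 in mouse 4, -0.43 in mouse 5 and -0.52 on the dye-swapped array. No p is given for this difference, since the classes were set with results of these arrays known. With median centring in place of loess, 13 type I targets and all 11 GTPases fell.

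**Figure D2:**
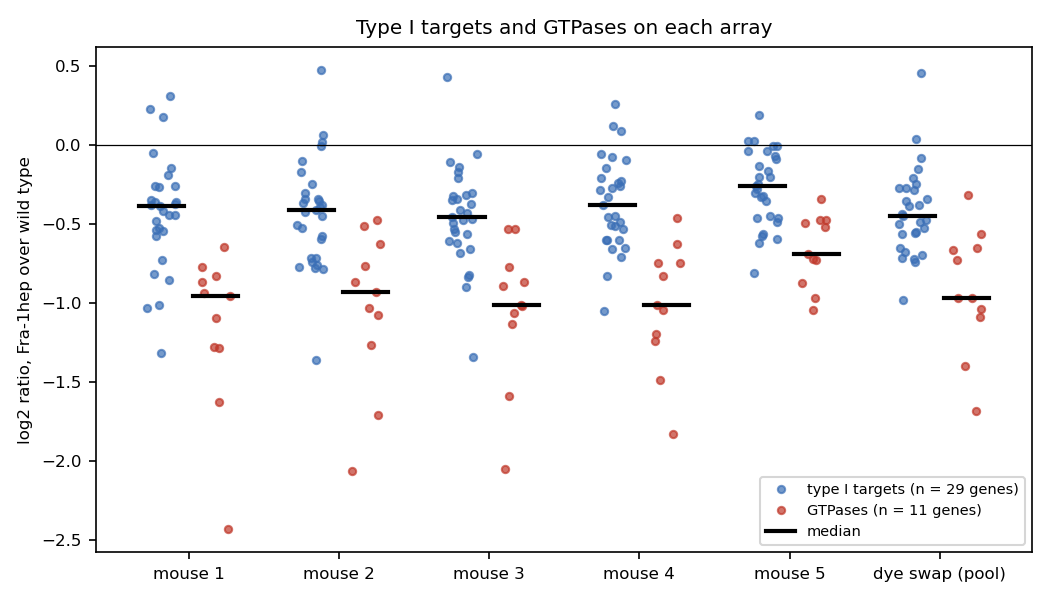
Log2 ratios of the 29 type I targets (blue) and the 11 GTPases (red) on each of the 6 arrays, with a bar at each median. The GTPase median is below the type I median on every array, and both are nearest to 0 in mouse 5, at -0.69 and -0.26.

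The values varied between the mouse arrays. Of the 5 mouse arrays, mouse 5 gave the value nearest to or above 0 most often, being the highest in 24 of 41 members and the lowest in 0. Mouse 1 was the lowest in 16, and mice 2 and 3, counted as 1 sample in the fit, in 10 and 8. Mouse 5 was hybridised on a slide of its own among the mice, and its difference from the others cannot be told apart from that slide. On the slides, the type I median over mouse arrays was -0.40, -0.42 and -0.26 and the GTPase median -1.07, -0.88 and -0.69, so both were negative within each.

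Immunity-related GTPases coat and break the vacuole that shelters an intracellular pathogen, and all 6 members fell, with a median of -0.97. Igtp (Irgm3), one of the regulatory proteins of the family that keep the effector GTPases inactive on the cell's own membranes, had the lowest estimate of all members. Igtp stood at -2.44, -2.06, -2.05, -1.83 and -0.97 in mice 1 to 5 and at -1.68 on the dye-swapped array. The estimate was -1.75 with an SE of 0.22, a 3.37-fold lower signal (adjusted p = 0.003, limma). Every array was well below 0, and mouse 5 was apart from the rest. With an intensity trend and robust variance in limma the adjusted p of Igtp was 0.05, and over all 17 alternatives it ran from 0.000113 to 0.05. Of the other regulatory proteins, Irgm2 fell by 0.98 (SE 0.13) and Irgm1 by 0.82 (SE 0.08), with a further Irgm1 probe at -0.84. The effectors fell too. Ifi47 (Irgd) stood at -1.29, -1.03, -1.02, -1.24 and -0.87 in mice 1 to 5 and at -1.04 on the dye-swapped array, an estimate of -1.07 (SE 0.09, adjusted p = 0.000477, limma). Iigp1, which oligomerises on the vacuole of Toxoplasma, fell by 0.96 (SE 0.09), and its further probe was at -1.03. In the main fit Tgtp1 moved least in this family, at -0.77, -0.48, -0.53, -0.62 and -0.69 in mice 1 to 5 and -0.66 on the dye-swapped array. It had an estimate of -0.66 (SE 0.07, adjusted p = 0.00126, limma). Over the alternatives the estimate of Tgtp1 ran from -1.30 to -0.63, and that of Irgm1 from -0.98 to -0.67, so this order depends on the processing. The array values of Tgtp1 were close together, with mouse 5 inside the range of the other mice. Tgtp1 has a near-identical neighbour, Tgtp2, whose own probe was at -1.65 (SE 0.18, adjusted p = 0.00165, limma). Over the alternatives Tgtp2 ran from -1.77 to -1.09. In the main fit the probes of the pair thus disagree in size, and how much signal they share was not measured.

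Guanylate-binding proteins bind to pathogen membranes and to the vacuoles the other family has marked, and all 5 members fell, with a median of -0.76. Gbp6 stood at -1.63, -1.71, -1.59, -1.49 and -1.04 in mice 1 to 5 and at -1.40 on the dye-swapped array. Its estimate of -1.43 (SE 0.11) is a 2.69-fold lower signal (adjusted p = 0.000429, limma), and a further Gbp6 probe was at -1.31. Again mouse 5 was the highest and all arrays were below -1. Gbp6 is closely related to Gbp10, which was at -0.33 (SE 0.06), and signal shared between the pair was not measured. Gbp3 fell by 0.84 (SE 0.08), Gbp2 by 0.76 (SE 0.13) and Gbp7 by 0.57 (SE 0.07). Gbp2 was the most variable of these, from -1.20 in mouse 4 to -0.47 in mouse 5. Gbp5, which also promotes inflammasome assembly, moved least in the main fit, at -0.94, -0.76, -0.89, -0.83 and -0.34 in mice 1 to 5 and at -0.32 on the dye-swapped array. Its estimate was -0.53 (SE 0.11, adjusted p = 0.0195, limma), and over the alternatives the adjusted p ran from 0.00177 to 0.08, the highest on the scanner's processed signals. There Gbp5 stood at -0.90, while Gbp7 went no lower than -0.70 in any alternative, so the order depends on the processing. For Gbp5 the first 4 mice and the other pair of arrays did not overlap.

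GTPases outside the set, taken from a list of paralogs, moved in the same direction. Of 10 paralogs tested 7 fell, 0 rose and 3 did not pass the test, with a median of -0.55. Over all genes tested, 6.51% fell and 5.98% rose. Tgtp2 had the lowest estimate, followed by the very large GTPase Gvin1 at -1.31 (SE 0.10), Gbp2b at -1.003 (SE 0.10) and Gbp4 at -0.98 (SE 0.13). Other genes known as targets of interferon gamma were mixed, with 7 of 12 lower, 0 higher and a median of -0.32. Cxcl9, a chemokine that attracts T cells, stood at -2.34, -1.86, -1.88, -2.58 and -0.77 in mice 1 to 5 and at -1.56 on the dye-swapped array, an estimate of -1.72 (SE 0.29, adjusted p = 0.00851, limma). Its call was lost in 3 of 17 alternatives, with an intensity trend and robust variance at the same -1.72 (adjusted p = 0.106) and on the processed signals and the series table at -1.86 (0.0595 and 0.0593), in a range from 0.000435. Cxcl10, which acts on the same receptor, fell by 1.61 (SE 0.20), and the checkpoint ligand Cd274 and the peptide transporter Tap1 fell by 0.68 (SE 0.07) and 0.49 (SE 0.07). Mouse 5 had the highest Cxcl9 value. With median centring or on the processed signals, 4 of these 12 genes were called lower.

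Among the type I targets, the cytosolic sensors mostly did not pass the test. Zbp1, which detects Z-form nucleic acid and can trigger cell death, was the one of 4 that fell. It stood at -1.03, -0.60, -0.62, -0.60 and -0.60 in mice 1 to 5 and at -0.68 on the dye-swapped array, an estimate of -0.69 (SE 0.09, adjusted p = 0.00361, limma). Mouse 1 was apart from the other 5 arrays, which lay close together, and a further Zbp1 probe was at -1.09. Ddx58, which encodes the RNA sensor RIG-I, did not pass the test. It stood at -0.14, -0.24, -0.30, -0.05 and -0.13 in mice 1 to 5 and at 0.04 on the swapped array. It had an estimate of -0.05 (SE 0.06, adjusted p = 0.649, limma). All 5 mice were below 0, and a further Ddx58 probe was at -0.23. Ifih1, the sensor MDA5, was at -0.05 (SE 0.08) and Dhx58, their relative LGP2, at -0.28 (SE 0.07, adjusted p = 0.0516, limma). Dhx58 was below 0 on all 6 arrays and passed the test in 7 of 17 alternatives, among them the one without mouse 5 (adjusted p = 0.0275, in a range from 0.0109 to 0.142).

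The transcription factors of the response fell by modest amounts, except Stat2. Irf7, the factor that amplifies type I interferon production, stood at -0.54, -0.37, -0.48, -0.60 and -0.46 in mice 1 to 5 and at -0.35 on the dye-swapped array. Its estimate was -0.43 (SE 0.06, adjusted p = 0.00477, limma), with no array above -0.3. Irf1, the factor shared with the gamma response, had the same estimate of -0.43 (SE 0.08), and Irf9, the DNA-binding partner of STAT2, fell by 0.39 (SE 0.06). Both were lost with median centring, at adjusted p-values of 0.0644 for Irf1 and 0.0544 for Irf9, the highest of ranges from 0.004 and 0.00157. Stat2 stood at -0.35, -0.0024, -0.053, 0.12 and -0.0052 in mice 1 to 5 and at -0.27 on the dye-swapped array, an estimate of -0.17 (SE 0.09, adjusted p = 0.28, limma). Its values lay on both sides of 0.

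IFIT1 binds viral RNA lacking the host cap methylation, and all 3 members of the IFIT family fell. Ifit3 stood at -0.38, -0.77, -0.66, -0.60 and -0.35 in mice 1 to 5 and at -0.69 on the dye-swapped array, an estimate of -0.60 (SE 0.08, adjusted p = 0.00386, limma). Ifit2 was the steadiest member of the family, at -0.44, -0.58, -0.53, -0.53 and -0.48 in mice 1 to 5 and at -0.39 on the dye-swapped array. It had an estimate of -0.44 (SE 0.06, adjusted p = 0.00307, limma). Ifit1 fell by 0.58 (SE 0.07). All arrays were below 0 for each of the 3 genes. Ifit3 and its close copy Ifit3b, at -0.59 (SE 0.06), may share signal, which was not measured.

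ISG15 is a ubiquitin-like protein attached to other proteins by HERC ligases and removed by USP18, which also damps the type I receptor. All 3 members of this pathway fell. Usp18 stood at -1.01, -0.74, -0.61, -0.46 and -0.46 in mice 1 to 5 and at -0.49 on the dye-swapped array, an estimate of -0.57 (SE 0.11, adjusted p = 0.0138, limma). Its call was lost with median centring, at an adjusted p of 0.0501, and on the processed signals, at 0.0547, the highest of a range from 0.00102. Isg15 itself fell by 0.49 (SE 0.06), with a further probe at -0.47. Herc6, the main ligase for ISG15 in the mouse, moved least, at -0.37, -0.30, -0.32, -0.33 and -0.16 in mice 1 to 5 and at -0.24 on the dye-swapped array. Its estimate was -0.27 (SE 0.06, adjusted p = 0.0323, limma), and it no longer passed without mouse 1 or without mouse 4, at adjusted p-values of 0.0539 and 0.0669, in a range from 0.0056 to 0.0697.

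The oligoadenylate synthetases, which make the messenger that activates the RNA-degrading enzyme RNase L, and the related Oasl proteins were the most divided group, with 3 lower, 1 higher and 1 not passing. Oas1a stood at -0.85, -0.76, -0.83, -0.83 and -0.45 in mice 1 to 5 and at -0.65 on the dye-swapped array, an estimate of -0.69 (SE 0.09, adjusted p = 0.00273, limma), with a further probe at -0.59. Oasl2 fell by 0.61 (SE 0.09) and Oas2 by 0.36 (SE 0.07), and Oas2 did not pass with median centring (adjusted p = 0.0614, the highest of a range from 0.00161). Oasl1, known to hold back the translation of Irf7 mRNA, went the other way. It stood at 0.31, 0.48, 0.43, 0.09 and 0.20 in mice 1 to 5 and at 0.46 on the dye-swapped array, an estimate of 0.36 (SE 0.08, adjusted p = 0.0231, limma). Every array was above 0, mouse 4 least. On the processed signals Oasl1 stayed at 0.36, with an adjusted p of 0.0833, the highest of a range from 0.0126. Oas3 was dim, with the Fra-1hep channel above background on 4 of 6 arrays. Oas3 stood at -0.48, -0.10, -0.14, -0.09 and -0.04 in mice 1 to 5 and at -0.28 on the dye-swapped array, an estimate of -0.23 (SE 0.09, adjusted p = 0.145, limma).

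Of the 11 other antiviral effectors measured, 8 fell and 3 did not pass the test. Rtp4, an interferon-induced protein that also limits the response, was the lowest of all type I targets, at -1.32, -1.36, -1.34, -1.05 and -0.81 in mice 1 to 5 and at -0.72 on the dye-swapped array. Its estimate was -0.92 (SE 0.10, adjusted p = 0.00188, limma), a 1.90-fold lower signal. Mouse 5 and the pool were again the nearest to 0. Ifi27l2a fell by 0.82 (SE 0.07), Ifi44 by 0.68 (SE 0.10) and the tetherin gene Bst2, which holds budding viruses on the cell, by 0.54 (SE 0.07). Ifi44 did not pass on the processed signals, at -1.13 with an adjusted p of 0.0607, the highest of a range from 0.000659. Trim30a, Parp14, Rsad2 (viperin, which makes a chain-terminating nucleotide) and Xaf1 fell by 0.40, 0.39, 0.38 and 0.32, with SEs of 0.06 to 0.08. Of these 4, Parp14, Rsad2 and Xaf1 did not pass with median centring, at adjusted p-values of 0.0583 to 0.0908. Ifi35 moved least, at -0.050, 0.065, -0.17, -0.24 and -0.0028 in mice 1 to 5 and at -0.15 on the dye-swapped array. It had an estimate of -0.12 (SE 0.07, adjusted p = 0.3, limma). Samd9l was at -0.22 (SE 0.07, adjusted p = 0.0888, limma). Eif2ak2, the kinase PKR that stops translation on double-stranded RNA, was at -0.19 (SE 0.08, adjusted p = 0.158, limma), but its mouse arrays ran from -0.10 to 0.26 and the dye-swapped array was at -0.50. Mouse and dye-swapped arrays thus did not overlap, and for Eif2ak2 the estimate is an average of opposite signs.

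A further list outside the set held paralogs of the members other than GTPases and more interferon targets, not sorted by type of interferon. It showed 16 of 26 lower, 3 higher and 7 not passing, with a median of -0.34, where 6.51% of all genes tested fell and 5.98% rose. On the processed signals 8 were called lower. Ifit1bl1, Ifi30 (a lysosomal reductase of antigen processing) and Ifitm2 (a block to viral entry) fell by 0.79, 0.73 and 0.61, and Ifit1bl1 did not pass on the processed signals, at -2.45 with an adjusted p of 0.0713, the highest of a range from 4.9e-05. The list also held the most extreme opposite value. Ifi27l2b, a neighbour and close relative of Ifi27l2a, stood at 2.76, 2.79, 2.94, 2.86 and 2.60 in mice 1 to 5 and at 2.76 on the dye-swapped array. Its estimate of 2.77 (SE 0.07, adjusted p = 1.76e-06, limma) is a 6.82-fold higher signal beside the 1.76-fold lower signal of Ifi27l2a. All 6 arrays of Ifi27l2b lay above 2.5 and all 6 of Ifi27l2a below -0.5. The related Ifi27 rose by 0.60 (SE 0.06). Sp110 was called higher at 0.24 (SE 0.06), but its mice stood between 1.01 and 1.16 and the dye-swapped array at -0.60, and with the mean of its probes it was at -0.083 (adjusted p = 0.427).

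Few of the genes upstream of the targets passed the test. Of 16 ligand genes on the array 10 passed the filter on dim probes, and 0 passed limma's adjusted test, with 1 lower and 0 higher at an unadjusted p under 0.05. Ifnb1, Ifna4, Ifna11 and Ifne were not well above background on any array. Interferon gamma itself, Ifng, was dim, with the Fra-1hep channel above background on 4 of 6 arrays. It stood at -0.42, -0.18, -0.31, -0.50 and -0.09 in mice 1 to 5 and at -0.10 on the dye-swapped array, an estimate of -0.21 (SE 0.08, adjusted p = 0.165, limma). All arrays were below 0, and Ifng passed on the mouse arrays alone (adjusted p = 0.0194, in a range up to 0.244). Over the alternatives the estimate of Ifng ran from -0.84 to -0.18, so its size depends on the processing. The other tested ligands, Ifna1, Ifna2, Ifna5, Ifna7, Ifna12, Ifna14, Ifnab, Ifnk and Ifnl3, lay between -0.12 and 0.05, and probes of the Ifna genes may share signal among copies.

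Of 9 receptor and kinase genes, 0 passed limma's adjusted test, and at an unadjusted p under 0.05 the count was 0 as well. The type I receptor subunits Ifnar1 and Ifnar2 were at -0.01 (SE 0.06) and -0.09 (SE 0.06), and the gamma receptor subunits Ifngr1 and Ifngr2 at 0.02 (SE 0.11) and -0.01 (SE 0.07). The lambda receptor Ifnlr1 was at 0.19 (SE 0.12) and its partner Il10rb at -0.03 (SE 0.09). Jak1, Jak2 and Tyk2 stood at -0.05, 0.01 and 0.06, with SEs of 0.06 to 0.07. For Tyk2 that average hides a split by dye, with all mice between -0.44 and -0.21 and the dye-swapped array at 0.45.

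The machinery that induces interferons had 2 of 15 genes lower (13.3%) and 0 higher, where 6.51% of all genes tested fell and 5.98% rose. Sting1, the adaptor of DNA sensing, fell by 0.40 (SE 0.06) and Irf8, a factor of macrophages and dendritic cells, by 0.24 (SE 0.06). Irf8 lost its call in 9 alternatives, among them without mouse 1, 4 or 5, at adjusted p-values of 0.0613 to 0.0833, in a range from 0.0284 to 0.402. Brakes on the signal had 3 of 11 lower (27.3%) and 0 higher. The phosphatase Ptpn6 fell by 0.49 (SE 0.09), the exonuclease Trex1 by 0.33 (SE 0.08) and the RNA editor Adar by 0.29 (SE 0.06). Trex1 lost its call in 3 alternatives and Adar in 4, with adjusted p-values up to 0.181 and 0.155, both highest with median centring, where they stood at -0.19 and -0.16. Ptpn6 passed in all 17. The median over the induction list was -0.06 and over the brakes -0.13.

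**Figure D3:**
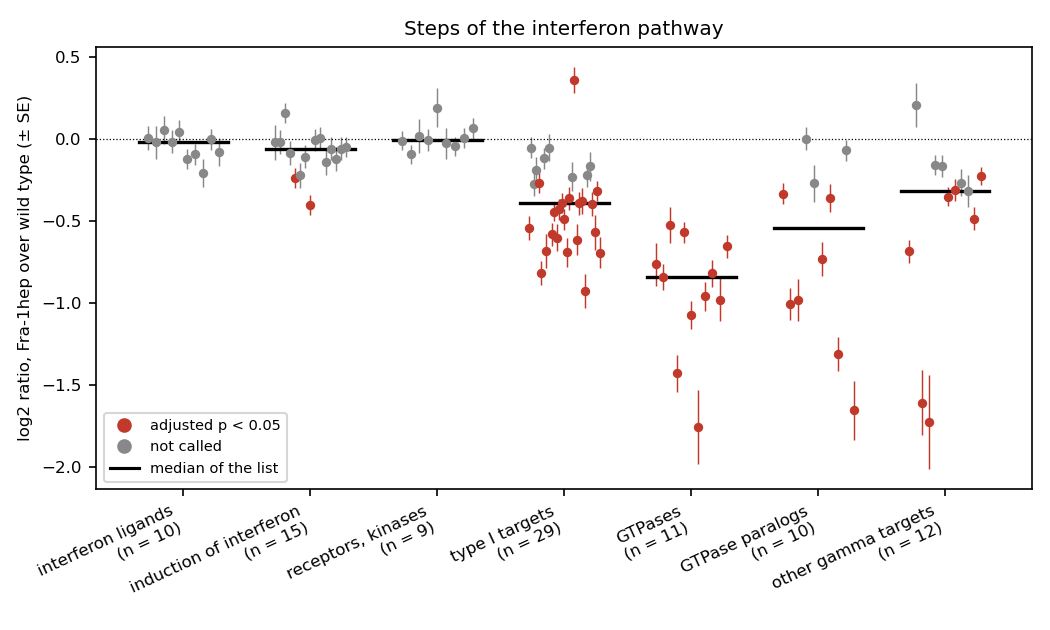
Estimated log2 ratio with its SE for each tested gene of 7 lists along the interferon pathway; red marks an adjusted p under 0.05 and the bar is the median of the list. The medians of ligands, inducers and receptors are -0.02, -0.06 and -0.01, that of the type I targets is -0.39 and that of the GTPases -0.84.

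The promoter motifs were counted over the members with a window. An ISRE core was present in 20 of the 32 members with a window (62.5%) and in 3.99% of all 27025 genes with one. GAS was present in 11 members (34.4%) and in 9.55% of all genes. By windows, 3.44% of all 32851 held an ISRE core and 8.3% a GAS. Among the GTPases 8 of 9 (88.9%) held an ISRE core and 5 of 9 (55.6%) a GAS, and among the type I targets 12 of 22 (54.5%) and 5 of 22 (22.7%). Ifi47 was the GTPase without an ISRE core. ISRE cores were in 15 of 25 members that passed the test (60%) and in 5 of 7 that did not (71.4%). No match says only that these letters are not in the window. The pair of GAS and ISRE core with 2 bases between, a spacing picked after the sequences were seen, was found in 5 of the 32851 windows (0.0152%). These belong to Igtp, Irgm2 and Tgtp1 among the members and to Tgtp2 and Gm12185 outside the set, all related GTPase genes whose promoters may share descent and are not independent. Igtp and Tgtp2 were at -1.75 and -1.65, Irgm2 at -0.98 and Tgtp1 at -0.66, and Gm12185 did not pass the filter on dim probes.

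**Figure D4:**
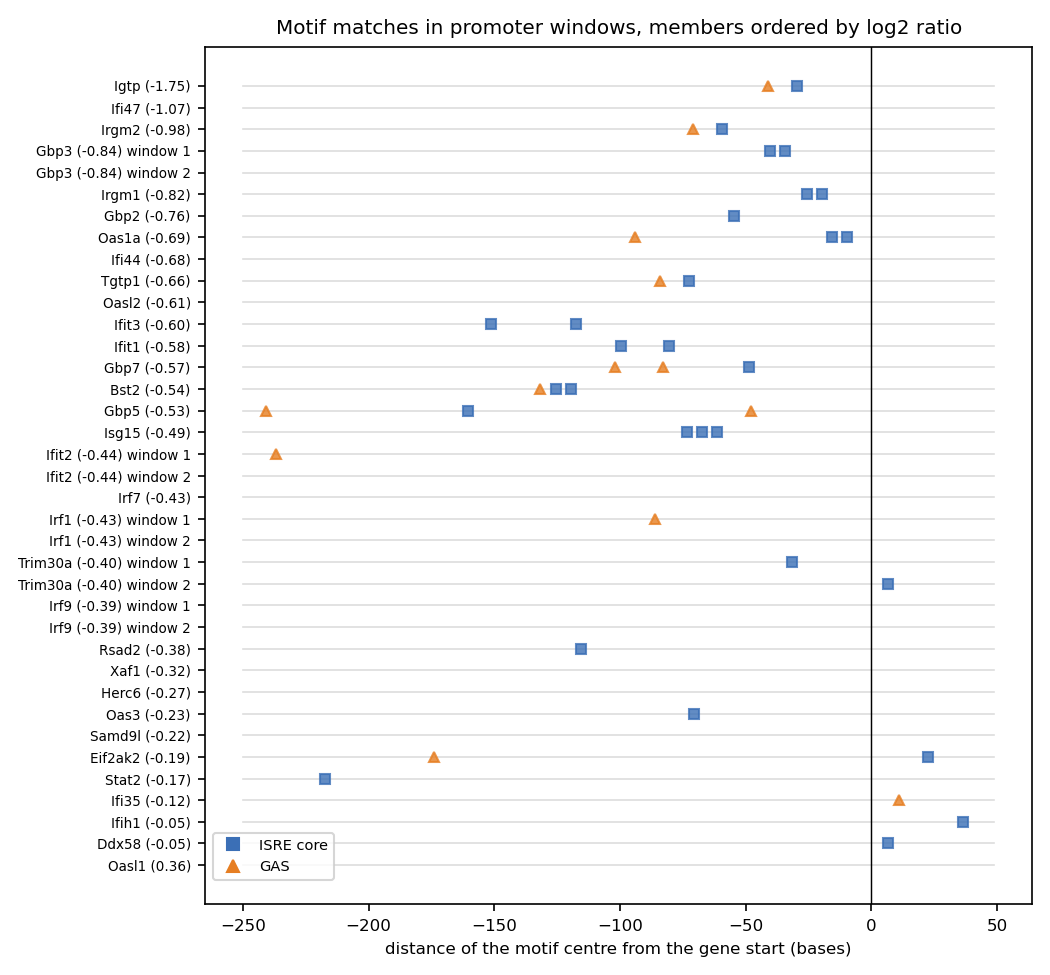
Distance of each motif match from the gene start, in bases, for the 37 promoter windows of the 32 members with a window, ordered from the lowest log2 ratio (in brackets) at the top. Squares are ISRE cores and triangles GAS, and windows without a symbol hold neither motif.

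Marker genes of several cell types of liver changed as well, where 6.51% of all genes tested fell and 5.98% rose. Of 14 Kupffer cell and macrophage markers, all above background, 10 fell and 0 rose, with a median of -0.55. Cd5l, Timd4 and Clec4f, which mark resident Kupffer cells, were at -0.75, -0.67 and -0.61. Itgam, Cx3cr1 and Ccr2, which recruited monocytes also express, were at 0.39, 0.26 and 0.11 and did not pass the test. Lyz2 and Csf1r, also not confined to resident cells, fell by 0.55 and 0.46. On the processed signals 1 of the 14 was called lower, Clec4f, with the median at -0.59, and 6 were with median centring, with 1 higher. Their summed signal was 47634 to 76466 on the mouse arrays in Fra-1hep and 90959 to 101849 in wild type. Of 12 endothelial markers 10 fell and 0 rose, with a median of -0.44 (Clec4g -0.95), and summed signals of 16828 to 23917 against 30827 to 32836. On the processed signals 1 of these 12 was called lower, Eng, with the median at -0.54, and with median centring 6 were. T and NK cell markers showed 7 of 12 lower and 0 higher, a median of -0.28 (Gzma -1.50) and sums of 6245 to 9823 against 6799 to 10563, with Ncr1 and Klrb1c not above background on any array. On the processed signals 3 of the 12 were called lower and with median centring 4 were. B cell markers showed 2 of 4 lower, a median of -0.34 and sums of 478 to 571 against 679 to 797. Dendritic cell markers showed 2 of 9 lower, Itgax and the member Bst2, a median of -0.06 and sums of 28792 to 50305 against 31619 to 44045, with Xcr1 not above background on any array. Neutrophil markers went the other way, with 9 of 11 higher, 1 lower, a median of 2.19 and sums of 41527 to 92778 against 30342 to 35920. With an intensity trend and robust variance 1 of the 11 was called higher. All 12 hepatocyte markers were measured, with a median of 0.07, 2 of them lower and sums of 628316 to 675427 against 560289 to 660053. On the dye-swapped array the hepatocyte sum was lower in Fra-1hep, at 544983 against 721265 in wild type. Kupffer and endothelial sums were lower there too, at 60547 against 91570 and 21357 against 30784. So were those of T and NK cells (6276 against 8121), B cells (521 against 704) and dendritic cells (35406 against 37539). The neutrophil sum was higher there, at 66933 against 35840. The part of these cell types in the lower interferon genes was not tested. The Kupffer median was -0.73, -0.71, -0.75, -0.32 and -0.35 in mice 1 to 5 and -0.47 on the dye-swapped array, beside GTPase medians of -0.96, -0.93, -1.01, -1.01 and -0.69 in the mice and -0.97 on the dye-swapped array.

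**Figure D5:**
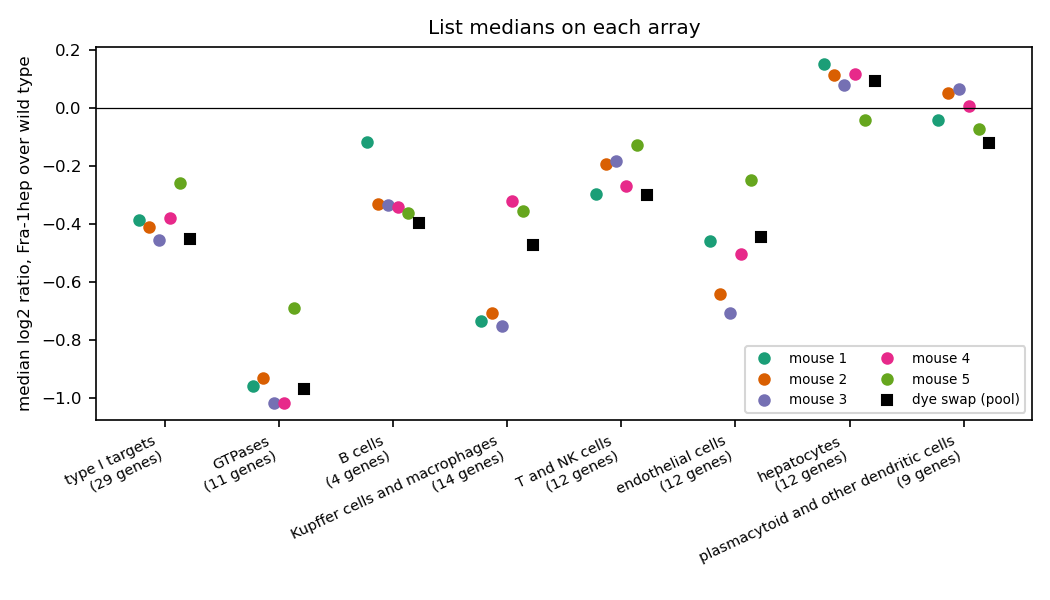
Median log2 ratio on each of the 6 arrays for the type I targets, the GTPases and 6 lists of cell type markers; the neutrophil list, with a median of 2.19, is left out for scale. The GTPase medians lie below those of every marker list shown on each array, and the hepatocyte list lies near 0.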

How the data were processed

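Whole-liver RNA (integrity score above 7.8, 100 ng labelled, per the labels' protocols) was measured on 6 Agilent arrays. The series text counts 6 single mutant mice, but by the sample labels there were 5, and the sixth array held pools; this follows the sample labels. The members and lists were chosen with earlier results of these data known.

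Scans were extracted by the authors with Agilent Feature Extraction, version 10.7 per the submitters' processing notes and 10.7.3.1 per the file headers. Deposited files of the scanner hold the median spot and background signal per channel as intensity, without normalization, and, per the file headers, a log ratio of processed signals in log10 units. The deposited table of the whole series, made by the authors, holds log2 ratios with the dye-swapped array turned; set against each array, the median absolute difference was at most 4.35e-07. Its columns are not centred, with medians from -0.18 to 0.06.

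From the intensities, background was corrected by normexp (offset 50) and ratios were normalised by loess within each array in limma 3.58.1 under R 4.3.3 (data.table package, version 1.17.8). Controls and outlier spots, of which an array had 190 to 301, were left out, 0 spots were saturated, and spots of a probe were averaged. Ratios of dim probes are shrunk towards 0 by the offset. Summed marker signals also hold the offset, were scaled between arrays by Aquantile normalization in limma and carry no constant for dye. Accessions were named from the RefSeq list of GRCm38.p6, used for names and promoters only; 26056 of 55681 probes had 1 symbol. Probes without a symbol were grouped by their systematic name, and each such name counts as a gene. A gene stands for its brightest probe, tested if well above background on at least 3 arrays in either group. Of all probes, 48.5% to 58.9% were well above background for Fra-1hep RNA and 45% to 50.7% for wild-type RNA.

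The model was fitted over all 22830 genes (3 residual and 4.67 prior degrees of freedom) and tested on simulated data. Each role group gives all arrays for its members with the largest and smallest change, those against the group's direction and those not well above background; other lists give at most 4 changed genes. In other lists, some genes beyond that were singled out after their values were seen. They were Gbp10, Ifit3b, Ifi27, Sp110, the Tyk2 arrays, Eng, Itgam, Cx3cr1, Ccr2, Lyz2, Csf1r and Gm12185. The arrays of Ifi47 and Eif2ak2 were also chosen after their values were seen. The other marker examples are among the 4 largest. The closing section gives the 17 alternatives. A gene of the pathway lists is not reported here.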

Additional observations from a re-analysis of the deposited data

Results flagged for a closer look

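Among 101 genes and 25 list medians looked at, 6 had one counted mouse sample far from the other 3 of 4 (mice 2 and 3 counted as 1); chance gives about 1 in 20. Zbp1 was at -1.03 in mouse 1, with the others between -0.61 and -0.60. Oas1a was at -0.45 in mouse 5, with the others between -0.85 and -0.80. Irgm1 was at -0.72 in mouse 5, with the others between -1.09 and -1.05. Gzmb, a granzyme of killer lymphocytes, was at -0.46 in mouse 4, with the others between -0.35 and -0.33. Ifnlr1 was at -0.31 in mouse 1, with the others between 0.22 and 0.33. The median of the B cell markers was -0.11 in mouse 1, with the others between -0.36 and -0.33.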

How the results depend on the processing

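Of 17 alternatives, the members lower ranged from 24 with median centring to 34, and the GTPases lower from 10 to 11. All 33 changed members kept their sign in every alternative, and 21 of them passed the test in every one. Members higher were 0 on the processed signals and in the series table, where type I and GTPase medians were -0.53 and -0.996. With median centring, 13 type I targets were lower, their median was -0.29, and lower genes made up 25.2% of all calls, against 52.1% with loess. Without a constant for dye the GTPase minus type I difference was -0.55, against -0.45. Other pathway genes lower were 23 with median centring and 20 on the processed signals and in the series table, against 35, and higher 6 on the mouse arrays alone, against 3. Marker genes lower were 21, 10 and 10 in those same 3 settings, against 33. Marker genes higher were 14 with median centring, 15 on the mouse arrays alone and 1 with an intensity trend and robust variance, against 9. Over all genes, lower and higher calls were 832 and 2467 with median centring, 783 and 749 on the processed signals, 790 and 752 in the series table, 2304 and 2486 without a constant for dye and 2637 and 3462 on the mouse arrays alone, against 1487 and 1365. Tyk2 was at -0.32 on the mouse arrays alone (adjusted p = 0.00665), Ptpn2 there at 0.17 (0.044) and Ttr there at 0.28 (0.0389), and Sp110 was at -0.083 with the mean of its probes (0.427). The cause of these changes was not tested. Slide as a random block gave a correlation of -0.016. No pairing with single wild-type mice was possible, because the wild-type RNA was a pool on every array. The 1 wild-type pool limits every result, and dim genes such as Oas3 and the ligands were little above background.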
